A study of Mus musculus with 12 samples.

Results

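The effect of breathing 7% O2 on the liver transcriptome was measured in C57BL/6J mice that had received PBS alone. The comparison used 6 of the 12 libraries of a study of oxygen and dexamethasone (DEX), chosen by their labels. Libraries Hypoxia_PBS-1, Hypoxia_PBS-2 and Hypoxia_PBS-3 came from mice kept at 7% O2 for 24 h, and Normoxia_PBS-1, Normoxia_PBS-2 and Normoxia_PBS-3 from mice kept at 21% O2. All 6 livers were sampled 2 h after an injection of PBS, after which the hypoxic mice were returned to the chamber. The mice were not stated to carry any allele, and their age and sex were not stated. The other 6 libraries came from mice given 10 mg/kg DEX under the same oxygen conditions, 3 per oxygen level, and entered the values below only where named. Nothing states that the 3 libraries of a group came from separate mice on separate days, so p-values measure only the spread between these libraries.

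Liver parenchyma works along an oxygen gradient, from the oxygen-rich periportal side of the lobule to the oxygen-poor pericentral side. When oxygen falls, prolyl hydroxylases no longer mark the hypoxia-inducible factor (HIF) alpha subunits for destruction, and the stabilized factors bind hypoxia response elements and raise genes of glycolysis, mitophagy and vessel growth. The liver is also where fructose, fatty acids, amino acids, bile acids and foreign compounds are processed, much of it by enzymes that consume oxygen.

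Total counts per library were 14273137 to 17456286, and 12428 genes passed a filter of at least 1 CPM (read counts scaled to library size) in at least 3 of the 6 libraries. Of these, 3693 (29.7%) passed edgeR's quasi-likelihood F test at an adjusted p under 0.05 (Benjamini-Hochberg over all genes tested), and in 3686 of them (29.7%) the groups did not overlap. In hypoxia, 1844 genes (14.8% of those tested) rose and 1849 (14.9%) fell. At least 2-fold, 464 (3.73%) rose and 506 (4.07%) fell. The values of the 3 hypoxia libraries lay outside the range of the 3 normoxia libraries in 5863 genes (47.2%). Each count named for a gene list below is to be read against these shares, since a list with about 15% of its members called in a direction is near the table as a whole. The levels of 15 hepatocyte markers, albumin among them, summed to 140345 to 152191 CPM in normoxia and 140486 to 163917 CPM in hypoxia, so the libraries held liver, and the groups overlapped.

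The first principal component of the 1000 most variable genes held 72.8% of the variance and separated the groups. The second held 18.1%, and on it Hypoxia_PBS-1 scored 21.0 against -17.6 and -5.89 for the other hypoxia libraries. That library had low levels of inflammatory genes. Cxcl10, an interferon-induced chemokine, was at 32.4, 129 and 322 CPM in normoxia and 38.02, 608 and 379 CPM in hypoxia, so Hypoxia_PBS-1 and Normoxia_PBS-1 were both low. Without Hypoxia_PBS-1, 1689 genes rose and 1656 fell. Fewer calls were made without Hypoxia_PBS-3 (1124 and 1031), Normoxia_PBS-1 (1118 and 1067) or Normoxia_PBS-2 (962 and 921), and the counts for single lists fell with them. List counts of 4 or fewer often moved by more than 1.5 times with 1 library left out and are given as descriptions only. The mitochondrial share of counts was 4.71% to 5.07% in normoxia and 6.13% to 6.18% in hypoxia, and its part in the results was not tested. Values are given below for replicates 1, 2 and 3 in that order, means are ± SD over n = 3 libraries, and fold changes are log2 with hypoxia minus normoxia, so that a gene said to rise or fall by a value did so by that log2 fold change. The words rose and fell are kept for genes that passed the test. Of the genes tested, 100 met the CPM filter only through the hypoxia libraries and 132 only through the normoxia libraries, so these had to differ, and where one is named its reads or levels are given without the test. List counts include such genes, 3 of them interferon-stimulated genes and at most 1 per group of libraries in any other list. In each list said below to have 0 members called in a direction, edgeR also found 0 members there at an unadjusted p under 0.05 and DESeq2 called 0, except where given.

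**Figure D1:**
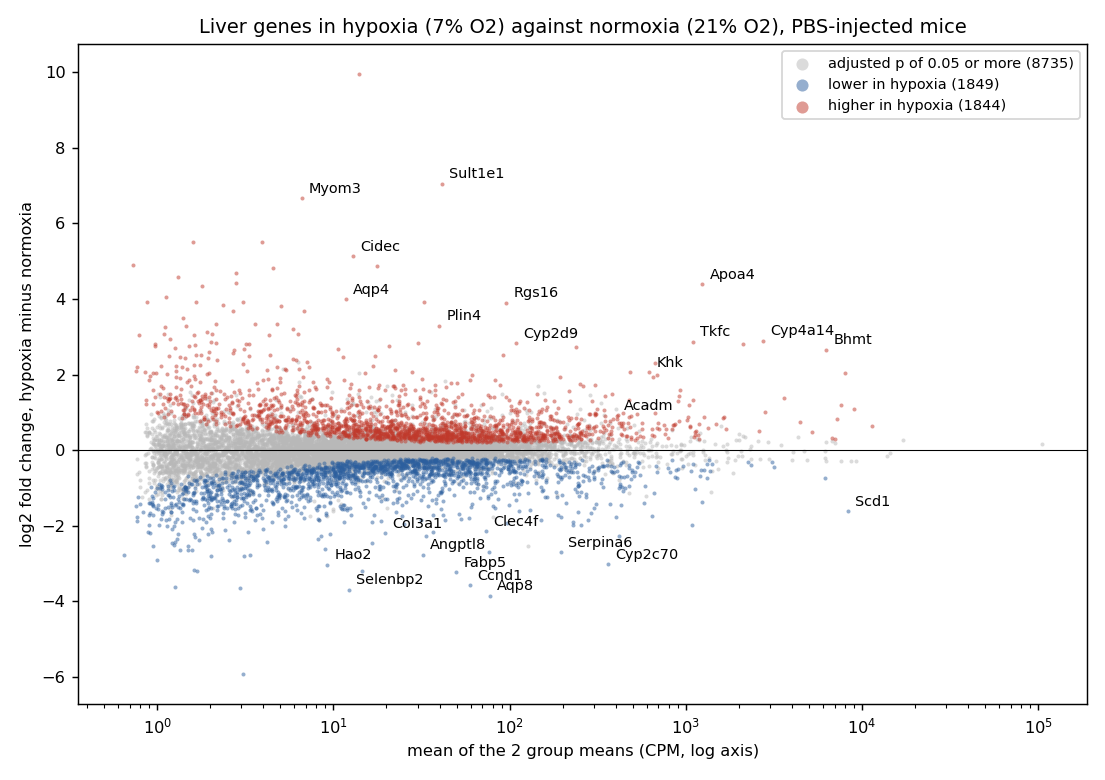
Mean level of each tested gene (x axis, mean of both group means in CPM, log axis) against its log2 fold change, hypoxia minus normoxia (y axis). Red points are the 1844 genes higher and blue points the 1849 genes lower in hypoxia at an adjusted p under 0.05, and some of the leading genes are named.

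The leading rises were in genes of steroid conjugation, lipid droplets, lipoproteins, fatty acid hydroxylation and fructose breakdown, and the leading falls in a water channel, a cyclin and genes of steroid and fatty acid handling. Sult1e1 (ENSMUSG00000029272, chromosome 5, 87575969 to 87591594), the estrogen sulfotransferase, was at 0.917, 0.214 and 0.759 CPM in normoxia and 139, 53.98 and 52.3 CPM in hypoxia. Hypoxia_PBS-1 was the highest. Reads summed to 30 in normoxia and 3771 in hypoxia, a ratio of 141 (exact 95% interval 98.6 to 209, counting error only). The gene met the CPM filter only through the hypoxia libraries, and with any of them left out it no longer did. Apoa4 (ENSMUSG00000032080, chromosome 9, 46240696 to 46243459), an apolipoprotein secreted when the liver exports fat, was at 135, 85.8 and 117 CPM in normoxia and 3174, 1991 and 1956 CPM in hypoxia, and every hypoxia library was far above every normoxia library (log2 fold change 4.40 with SE 0.28, adjusted p = 0.000274 by edgeR). Myom3, which encodes a protein of the sarcomere M-band, had 2, 1 and 3 reads in the normoxia libraries against 320, 172 and 100 in hypoxia. The ratio was 111 (exact 95% interval 50.6 to 303, counting error only). Myom3 too met the filter only through the hypoxia libraries. The phosphate carrier Slc34a2 rose by 3.93, the G-protein regulator Rgs16 by 3.90, the water channel Aqp4 by 3.99 and the lipid droplet coat gene Plin4 by 3.30. The translation repressor gene Eif4ebp3 rose by 3.20, from 1.14 ± 0.521 CPM to 10.6 ± 3.71 CPM. A larger change, chosen after its values were seen, was that of E030018B13Rik, a protein-coding gene without a name. It had 1 read over the normoxia libraries and 1283 over the hypoxia libraries (ratio 1440, exact 95% interval 258 to 56906). It also met the filter only through the hypoxia libraries.

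Among the falls, Aqp8, a water channel of the hepatocyte canalicular membrane, was at 133, 149 and 149.6 CPM in normoxia and 9.93, 13.6 and 6.33 CPM in hypoxia (log2 fold change -3.86 with SE 0.26, adjusted p = 0.000428 by edgeR). Ccnd1 (ENSMUSG00000070348, chromosome 7, 144929931 to 144939925), which encodes cyclin D1, the driver of entry into the cell cycle, was at 127, 113 and 89.8 CPM in normoxia and 8.05, 9.07 and 10.6 CPM in hypoxia, and its groups lay far apart (log2 fold change -3.58 with SE 0.16, adjusted p = 7.11e-05 by edgeR). Serpina6, which encodes the corticosteroid-binding globulin that carries glucocorticoids in blood, was at 259, 351 and 409.7 CPM in normoxia and 38.2, 60.3 and 57.8 CPM in hypoxia (log2 fold change -2.71 with SE 0.24, adjusted p = 0.000739 by edgeR). In each of these 3 genes the highest hypoxia library was below the lowest normoxia library. The rule for naming the largest falls required this. Hsd17b6, a hydroxysteroid dehydrogenase gene, fell by 2.70 on the log2 scale, Hao2, a peroxisomal hydroxyacid oxidase gene, by 3.04, Selenbp2 by 3.70 and Adgrf1, an adhesion receptor gene, by 3.20. The antisense gene Gm15998, singled out after its values were seen, had 305 reads over the normoxia libraries and 4 over the hypoxia libraries. It met the filter only through the normoxia libraries. Reads on it and on an overlapping gene may not be told apart, because the strand setting of the counting is not given in the sources used here.

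**Figure D2:**
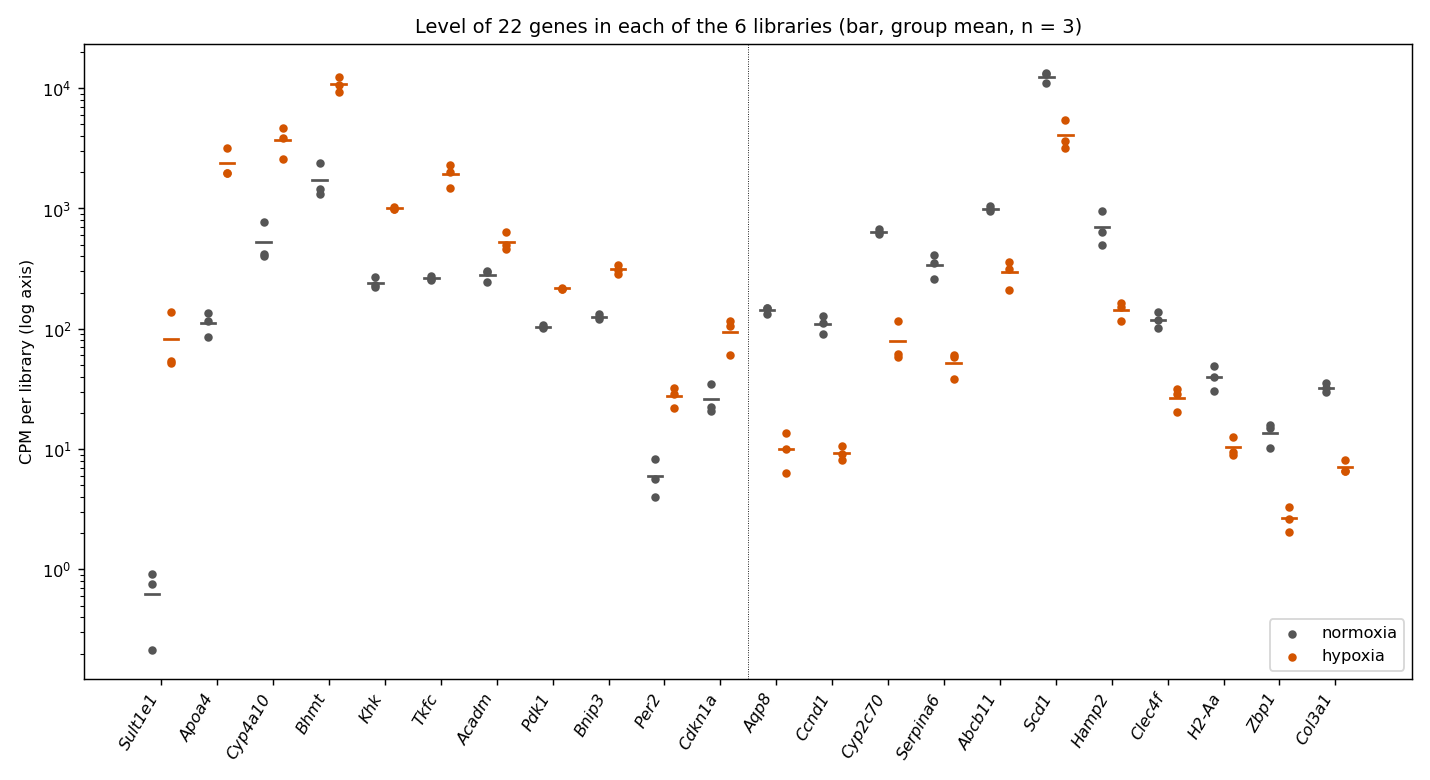
CPM (log axis) of 22 genes in each of the 3 normoxia (grey) and 3 hypoxia (orange) libraries, with bars at the group means. The 11 genes left of the dotted line were higher and the 11 on its right lower in hypoxia. In none of them do the groups overlap, which was a condition for naming the largest rises and falls. Sult1e1 met the filter only through the hypoxia libraries.

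Among the oxygen sensors themselves, 2 genes rose and 2 fell of 8 tested. Egln1, the main prolyl hydroxylase that marks HIF for degradation and is itself a HIF target, was at 22.4, 21.5 and 25.5 CPM in normoxia and 36.4, 31.7 and 34.6 CPM in hypoxia (log2 fold change 0.57 with SE 0.10, adjusted p = 0.0049 by edgeR). Epas1, which encodes HIF-2alpha, moved the other way, at 282, 236 and 255 CPM in normoxia and 179, 178 and 159 CPM in hypoxia (log2 fold change -0.58 with SE 0.10, adjusted p = 0.00469 by edgeR). Hif1an, the asparagine hydroxylase that blocks HIF's activation domain, fell by 0.34 (adjusted p = 0.0105 by edgeR). The groups did not overlap in any of these 3 genes. Hif1a, whose product is controlled mainly as protein, was at 50.1, 55.3 and 60.7 CPM in normoxia and 52.6, 70.003 and 65.2 CPM in hypoxia and did not pass (log2 change 0.18, adjusted p = 0.304 by edgeR). The call of the hydroxylase gene Egln3 (log2 change 0.92, adjusted p = 0.0375 by edgeR) was lost without any one of Hypoxia_PBS-2, Hypoxia_PBS-3 and the 3 normoxia libraries (adjusted p up to 0.11), and with no filter on low counts (adjusted p = 0.145).

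Of 33 tested HIF targets outside glycolysis, 10 rose and 2 fell, with a median log2 fold change of 0.36 against -0.01 over all genes tested. Bnip3, a mitophagy receptor of the outer mitochondrial membrane, was at 133, 119.8 and 126 CPM in normoxia and 342, 284 and 309.5 CPM in hypoxia (log2 fold change 1.30 with SE 0.10, adjusted p = 0.000274 by edgeR). Pdk1 (ENSMUSG00000006494, chromosome 2, 71873224 to 71903858), the kinase that switches off pyruvate dehydrogenase, was at 104, 108 and 101 CPM in normoxia and 215, 220.0 and 216 CPM in hypoxia (log2 fold change 1.06 with SE 0.07, adjusted p = 0.000228 by edgeR). In both genes each group lay in a narrow range and the groups were apart. Ddit4, an inhibitor of mTOR signalling, was at 4.34, 3.97 and 4.902 CPM in normoxia and 10.8, 20.5 and 10.9 CPM in hypoxia and Hypoxia_PBS-2 was the highest (log2 fold change 1.67 with SE 0.28, adjusted p = 0.00538 by edgeR). Ankrd37, an ankyrin repeat gene, was at 0.357 ± 0.175 CPM in normoxia and 1.97 ± 0.0904 CPM in hypoxia. It met the filter only through the hypoxia libraries, with 17 reads in normoxia and 87 in hypoxia, a ratio of 5.74 (exact 95% interval 3.39 to 10.3). The adenylate kinase gene Ak4 (0.72) and the collagen lysyl hydroxylase gene Plod1 (0.57) rose as well. Angptl4, an inhibitor of lipoprotein lipase, was higher (log2 change 1.49, adjusted p = 0.0274 by edgeR), but it was not called with Normoxia_PBS-3 or any single hypoxia library left out (adjusted p up to 0.0948), nor with no filter on low counts (adjusted p = 0.095).

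Other known targets did not pass or moved down. Vegfa, the main angiogenic ligand, was at 187, 227 and 271 CPM in normoxia and 203, 256 and 256 CPM in hypoxia, and the glucose transporter gene Slc2a1 at 8.37, 8.68 and 11.8 CPM in normoxia and 6.902, 9.37 and 7.23 CPM in hypoxia; their groups overlapped (log2 change 0.06, adjusted p = 0.782 by edgeR and log2 change -0.30, adjusted p = 0.256 by edgeR). Kdm3a, a histone demethylase gene, fell by 0.98 (adjusted p = 0.00794 by edgeR) and Ndrg1 by 0.91 (adjusted p = 0.00432 by edgeR). Epo, the erythropoietin gene, had 0 reads in all 6 libraries, and Car9, the tumour-associated carbonic anhydrase gene, had 0 to 4, so neither was tested.

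Promoters of the 2 HIF targets with the largest rises that hold the hypoxia response element core are shown because the core can be read in them. Each is the 250 bases before the transcription start (RefSeq, GRCm38.p6), 5′ to 3′ along the gene, and capitals mark ACGTG or GCGTG on either strand.
Ankrd37 (chr8:45999851-46000100, minus strand): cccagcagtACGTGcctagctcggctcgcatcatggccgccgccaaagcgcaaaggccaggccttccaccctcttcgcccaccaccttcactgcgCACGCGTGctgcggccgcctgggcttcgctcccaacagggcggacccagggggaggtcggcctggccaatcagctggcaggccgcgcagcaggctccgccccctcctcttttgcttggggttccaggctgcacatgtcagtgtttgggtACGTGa
Ddit4 (chr10:59951771-59952020, minus strand): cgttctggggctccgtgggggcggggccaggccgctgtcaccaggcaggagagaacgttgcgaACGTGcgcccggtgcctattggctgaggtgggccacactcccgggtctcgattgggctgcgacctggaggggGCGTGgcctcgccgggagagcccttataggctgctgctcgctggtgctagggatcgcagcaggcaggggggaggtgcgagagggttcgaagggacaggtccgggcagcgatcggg
RefSeq windows were found for 9461 of the tested genes. ACGTG, on either strand, was in 18 of 37 windows (48.6%) of the tested HIF targets, in 21.5% of all 12168 windows, in 23.7% of windows of genes that rose and in 19.1% of those that fell. Among the HIF targets that rose it was in 5 of 12 windows (41.7%), among the glycolysis genes that rose in 5 of 21 (23.8%), and among the tested clock genes in 10 of 24 (41.7%). GCGTG was in 67.6% of the windows of the tested HIF targets and in 43.2% of all windows, and the E-box CACGTG, which contains ACGTG, in 8.2% of all windows. Such matches describe the letters and not the binding of a factor.

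Most tested genes of sugar breakdown rose, among them Khk and Tkfc of fructose breakdown. Of 22 genes of glucose entry and glycolysis, 13 rose and 2 fell (median 0.55), and of 14 genes of pentose phosphate, fructose and galactose metabolism, 8 rose and 3 fell. Khk, ketohexokinase, which phosphorylates fructose, was at 229.6, 221 and 269 CPM in normoxia and 1035, 981 and 995 CPM in hypoxia (log2 fold change 2.07 with SE 0.10, adjusted p = 7.44e-05 by edgeR). Tkfc (ENSMUSG00000034371, chromosome 19, 10587791 to 10605654), the triokinase that completes fructose entry into glycolysis, was at 275, 261 and 254 CPM in normoxia and 2297, 1470.0 and 2015 CPM in hypoxia (log2 fold change 2.87 with SE 0.17, adjusted p = 0.000141 by edgeR). In both genes the groups lay far apart. Along glycolysis the isomerase gene Gpi1 rose by 1.55, the liver pyruvate kinase gene Pklr by 1.48, Eno1 (enolase) by 1.44, Pgk1 (phosphoglycerate kinase) by 1.11 and Ldha (lactate dehydrogenase) by 0.88, from 896 ± 87.6 CPM to 1652 ± 74.04 CPM (adjusted p = 0.00117 by edgeR). Eno1 and Pgk1 have near-identical copies in the genome among which reads could be split, so their levels are uncertain. Pkm, the pyruvate kinase of other tissues, was at 17.05, 15.6 and 15.1 CPM in normoxia and 15.7, 19.2 and 15.9 CPM in hypoxia and did not pass (log2 change 0.09, adjusted p = 0.582 by edgeR). Without Normoxia_PBS-1 or Normoxia_PBS-2, 5 of the 14 pentose phosphate, fructose and galactose genes rose.

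Gluconeogenesis was not raised as a block, with 5 genes higher and 2 lower of 14. Pcx, pyruvate carboxylase, which makes the first substrate, was at 470.4, 431 and 483 CPM in normoxia and 1446, 1336 and 1379.9 CPM in hypoxia (log2 fold change 1.59 with SE 0.09, adjusted p = 0.000141 by edgeR). Fbp1, fructose bisphosphatase, rose by 0.70 (adjusted p = 0.00253 by edgeR). Pck1, the carboxykinase gene often taken as the rate-setting step, moved down, at 1828, 961 and 1732 CPM in normoxia and 837, 735 and 642 CPM in hypoxia (log2 change -1.03, adjusted p = 0.0225 by edgeR), a call lost without Normoxia_PBS-1, Normoxia_PBS-3, Hypoxia_PBS-2 or Hypoxia_PBS-3 (adjusted p up to 0.0815) and with no filter on low counts (adjusted p = 0.102). The phosphatase gene G6pc was spread too widely to call, at 75.8, 26.5 and 24.4 CPM in normoxia and 163, 57.7 and 66.7 CPM in hypoxia (log2 change 1.18, adjusted p = 0.237 by edgeR). In glycogen metabolism 5 genes rose and 2 fell of 16, among them the liver glycogen synthase gene Gys2 (log2 change 0.95, adjusted p = 0.00611 by edgeR) and Ppp1r3b, which targets a phosphatase to glycogen (log2 change 1.30, adjusted p = 0.00732 by edgeR).

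At the entry to the citric acid cycle, the kinase gene Pdk1 rose and the phosphatase gene Pdp2, which acts against it, fell (log2 fold change -0.79 with SE 0.14, adjusted p = 0.00644 by edgeR), its means being 46.2 ± 8.12 CPM in normoxia and 26.7 ± 3.24 CPM in hypoxia. Pdk4, a kinase induced by fasting, was at 57.99, 11.2 and 7.94 CPM in normoxia and 22.6, 10.4 and 12.6 CPM in hypoxia and was not called (log2 change -0.75, adjusted p = 0.561 by edgeR), with 1 normoxia library far above the rest. Of 13 genes of the pyruvate dehydrogenase complex and its regulators, 4 rose and 2 fell. Of 15 citric acid cycle genes, 7 rose and 1 fell, while the citrate synthase gene Cs did not pass (log2 change -0.06, adjusted p = 0.601 by edgeR). Without Normoxia_PBS-1 or Normoxia_PBS-2 the number of cycle genes that rose was 4 or 3.

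Nuclear genes of the respiratory chain rose by small amounts in large numbers. Of 37 complex I genes, 22 rose and 0 fell (median 0.32), and of 39 genes of complexes II to V, 25 rose and 0 fell (median 0.36), against 14.8% of all genes rising. Ndufa8, a complex I subunit, was at 52.1, 50.7 and 51.8 CPM in normoxia and 94.3, 74.99 and 76.7 CPM in hypoxia (log2 fold change 0.67 with SE 0.10, adjusted p = 0.00271 by edgeR). Cycs, cytochrome c, was at 15.2, 15.2 and 16.99 CPM in normoxia and 31.3, 27.97 and 30.8 CPM in hypoxia (log2 fold change 0.93 with SE 0.09, adjusted p = 0.00063 by edgeR). Atp5a1, the ATP synthase alpha subunit, rose by 0.61 (adjusted p = 0.00276 by edgeR). Each hypoxia library was above each normoxia library in these genes. Of 10 genes encoded in the mitochondrial genome, 5 rose, among them mt-Nd5, at 5034, 4931 and 5569 CPM in normoxia and 9554, 9442 and 8683 CPM in hypoxia (log2 fold change 0.83 with SE 0.10, adjusted p = 0.00117 by edgeR), and mt-Cytb (log2 change 0.65, adjusted p = 0.00335 by edgeR). 3 rose when any one library other than Normoxia_PBS-3 was left out and under the upper quartile scale. The number of complex I genes that rose was 11 without Normoxia_PBS-1 and 10 without Normoxia_PBS-2, and that of complexes II to V was 13 and 11. By DESeq2's test 21 and 26 rose, and under the upper quartile scale 21 and 25.

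Mitochondrial ribosomal proteins, which build the translation machinery of the organelle, did not follow. Of 76 tested, 8 rose and 17 fell (median -0.08). Mrpl38 was at 55.97, 49.9 and 59.8 CPM in normoxia and 28.2, 31.4 and 31.3 CPM in hypoxia (log2 fold change -0.87 with SE 0.09, adjusted p = 0.000813 by edgeR), with no overlap. The 17 falls became 4 to 16 with 1 library left out, the lowest without Normoxia_PBS-2, 6 without Hypoxia_PBS-3, 7 without Normoxia_PBS-1, 9 without Normoxia_PBS-3 and 11 without Hypoxia_PBS-2, and it was 10 by DESeq2's test; the 8 rises became 4 without Normoxia_PBS-1 and 3 without Normoxia_PBS-2. Among 39 genes of autophagy and mitophagy, 9 rose and 2 fell, led by Bnip3 and by Wipi1, a phosphoinositide-binding autophagy protein (log2 change 1.15, adjusted p = 0.00148 by edgeR), while Gabarapl1, an autophagosome protein gene, fell by 1.18 (adjusted p = 0.000535 by edgeR). Without Normoxia_PBS-2, 4 rose.

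Genes of mitochondrial fatty acid oxidation that passed the test all rose. Of 21 genes of mitochondrial fatty acid oxidation, 13 rose and 0 fell (median 0.42). Acadm, the medium-chain acyl-CoA dehydrogenase, was at 303, 244 and 295 CPM in normoxia and 634, 458 and 493 CPM in hypoxia (log2 fold change 0.91 with SE 0.15, adjusted p = 0.00389 by edgeR). Etfdh, which passes its electrons to the respiratory chain, rose by 0.93 (adjusted p = 0.00358 by edgeR). In Acadm every hypoxia library was above every normoxia library. The carnitine transferase gene Cpt1a, which sets the rate of fatty acid entry into mitochondria, was at 601, 383 and 371 CPM in normoxia and 817, 497 and 595 CPM in hypoxia and did not pass (log2 change 0.49, adjusted p = 0.185 by edgeR). Of 34 peroxisomal genes 12 rose and 4 fell; Crot, a carnitine transferase of peroxisomes, fell by 1.14 (adjusted p = 0.00355 by edgeR). Without Normoxia_PBS-2, 7 of the mitochondrial and 6 of the peroxisomal genes rose.

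The cytochrome P450 family 4 enzymes, which hydroxylate the far end of fatty acids, held some of the largest changes at high level. Cyp4a10 was at 768, 402 and 419 CPM in normoxia and 4634, 2573 and 3846 CPM in hypoxia (log2 fold change 2.80 with SE 0.34, adjusted p = 0.00268 by edgeR). Cyp4a14 was at 887, 494 and 566 CPM in normoxia and 6777, 3064 and 4622 CPM in hypoxia (log2 fold change 2.89 with SE 0.37, adjusted p = 0.00321 by edgeR). The groups did not overlap in either gene, and the rank of the libraries was the same in both. Of 14 family members tested, 6 rose, all of subfamily A, and 3 fell, Cyp4f14 (-1.64), Cyp4f15 (-0.91) and Cyp4v3 (-0.42), counts that were 5 or 6 and 3 or 4 with 1 library left out. Cyp4a12b, an enzyme of male-predominant expression in mouse liver, had 2, 0 and 1 reads in normoxia and 47, 34 and 57 in hypoxia, a ratio of 51.6 (exact 95% interval 17.3 to 253). It is counted among the 6 rises but met the filter only through the hypoxia libraries. Reads could be shared between Cyp4a10, Cyp4a31 and Cyp4a32 and between Cyp4a12a and Cyp4a12b, which are near-identical copies. Xist, which is transcribed from the inactive X chromosome of female cells, was at 622, 600.1 and 663 CPM in normoxia and 857, 979 and 926 CPM in hypoxia and so was present in all 6 libraries (log2 change 0.55, adjusted p = 0.0048 by edgeR).

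Fatty acid synthesis and desaturation had 3 genes higher and 9 lower of 22 (median -0.34). Scd1, the main desaturase of liver and one of its most abundant messages, was at 10994, 13414 and 13096 CPM in normoxia and 5405, 3197 and 3612 CPM in hypoxia (log2 fold change -1.62 with SE 0.20, adjusted p = 0.0017 by edgeR). The polyunsaturated fatty acid desaturase genes Fads1 (log2 change -1.43, adjusted p = 0.00134 by edgeR) and Fads2 (log2 change -1.23, adjusted p = 0.000552 by edgeR) fell, and so did Mlxipl, which encodes the carbohydrate-responsive factor ChREBP (log2 change -0.92, adjusted p = 0.000709 by edgeR). Thrsp, a lipogenic regulator, moved the other way, at 66.2, 119 and 158 CPM in normoxia and 411, 419 and 327 CPM in hypoxia (log2 fold change 1.76 with SE 0.31, adjusted p = 0.00953 by edgeR). Fasn, fatty acid synthase, was at 468, 579 and 766 CPM in normoxia and 363, 742 and 543 CPM in hypoxia and did not pass (log2 change -0.14, adjusted p = 0.754 by edgeR). The list was therefore not uniform. Of 25 cholesterol synthesis genes, 1 rose and 4 fell. The rise was in Insig2, which retains the SREBP precursor in the endoplasmic reticulum, at 233, 158 and 165 CPM in normoxia and 979, 606 and 754 CPM in hypoxia (log2 fold change 2.07 with SE 0.22, adjusted p = 0.00122 by edgeR). Without Hypoxia_PBS-2, 10 of these genes fell, and 2 without Hypoxia_PBS-3 or any one of the normoxia libraries.

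Lipid droplets and lipoproteins changed in their coats, lipases and secretion. Of 20 droplet proteins and lipases, 9 rose and 1 fell. Plin4 was at 8.86, 7.24 and 5.87 CPM in normoxia and 119.9, 35.8 and 60.4 CPM in hypoxia, with Hypoxia_PBS-1 the highest (log2 fold change 3.30 with SE 0.52, adjusted p = 0.00935 by edgeR). Mgll, which releases the last fatty acid of a triglyceride, rose by 1.71 (adjusted p = 0.00261 by edgeR). Cidec, a droplet fusion protein gene, varied most, at 1.04, 0.322 and 0.829 CPM in normoxia and 54.7, 3.93 and 16.3 CPM in hypoxia (log2 fold change 5.13 with SE 1.28, adjusted p = 0.0378 by edgeR), and its call was lost without Hypoxia_PBS-3 or any one of the normoxia libraries (adjusted p up to 0.125) and with no filter on low counts (adjusted p = 0.0934). Plin2, the general droplet coat of liver, was at 775, 327 and 292 CPM in normoxia and 471, 233 and 332 CPM in hypoxia and did not pass (log2 change -0.43, adjusted p = 0.534 by edgeR). Without Normoxia_PBS-1 or Normoxia_PBS-2, 4 droplet genes rose. Of 22 apolipoprotein and secretion genes 6 rose and 5 fell, with Mttp, which loads lipid onto apolipoprotein B, higher (log2 change 0.98, adjusted p = 0.00239 by edgeR) and the lipase genes Lpl (log2 change -1.87, adjusted p = 0.000428 by edgeR) and Lipc (log2 change -1.06, adjusted p = 0.0003 by edgeR) lower; 3 rose without Normoxia_PBS-2, and 3 fell with any single library other than Hypoxia_PBS-1 left out or with RLE size factors. Among genes of fatty acid uptake and binding, the fatty acid translocase gene Cd36 rose (log2 change 1.25, adjusted p = 0.00862 by edgeR), while Fabp5 fell from 89.95 ± 41.6 CPM to 9.54 ± 1.31 CPM (adjusted p = 0.00569 by edgeR) and Angptl8, a lipase inhibitor induced by feeding, was at 70.4, 59.7 and 38.5 CPM in normoxia and 9.02, 7.26 and 8.35 CPM in hypoxia (log2 fold change -2.77 with SE 0.24, adjusted p = 0.000739 by edgeR). Of the 23 in that list 6 rose and 7 fell; 3 rose when any library other than Hypoxia_PBS-2 was left out or with no filter on low counts, and 4 fell without Normoxia_PBS-2.

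Bile acid genes split evenly, 7 higher and 7 lower of 25. Slc10a1, which takes bile acids up from blood, was at 622, 616 and 661 CPM in normoxia and 1521, 1372 and 1449.6 CPM in hypoxia (log2 fold change 1.19 with SE 0.09, adjusted p = 0.000274 by edgeR). Abcb11, which pumps them into the canaliculus, was at 948, 1045 and 983 CPM in normoxia and 211, 362 and 316 CPM in hypoxia (log2 fold change -1.74 with SE 0.19, adjusted p = 0.00104 by edgeR). The receptor gene Nr1h4 (FXR) rose by 0.90 (adjusted p = 0.00063 by edgeR). Cyp7b1 of the alternative synthesis route fell by 1.12 (adjusted p = 0.000533 by edgeR), and Cyp2c70, which makes the muricholic acids of the mouse, was at 670.2, 641 and 616 CPM in normoxia and 58.8, 115 and 61.96 CPM in hypoxia (log2 fold change -3.03 with SE 0.28, adjusted p = 0.000941 by edgeR). Cyp7a1, the rate-limiting enzyme of the classical route, was at 55.9, 102 and 116 CPM in normoxia and 176, 177 and 82.6 CPM in hypoxia with overlapping groups and did not pass (log2 change 0.67, adjusted p = 0.261 by edgeR). Without Hypoxia_PBS-1 or Normoxia_PBS-1, 3 genes of the list fell.

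Genes of serine, methionine and one-carbon metabolism moved in both directions, 7 of 25 higher and 3 lower (median -0.10). Bhmt (ENSMUSG00000074768, chromosome 13, 93616675 to 93637961), which regenerates methionine from betaine, was at 1465, 1316 and 2371 CPM in normoxia and 12393, 10680.0 and 9362 CPM in hypoxia (log2 fold change 2.65 with SE 0.25, adjusted p = 0.000739 by edgeR). Mat1a, the liver enzyme that makes S-adenosylmethionine, was at 4312, 3734 and 5981 CPM in normoxia and 12189, 9809 and 9909.6 CPM in hypoxia (log2 fold change 1.19 with SE 0.19, adjusted p = 0.00369 by edgeR). Dmgdh, which oxidizes the dimethylglycine that Bhmt leaves, rose by 1.32 (adjusted p = 0.000827 by edgeR) and Bhmt2 by 1.08 (adjusted p = 0.000784 by edgeR). Cbs, cystathionine beta-synthase, was at 602, 622 and 647 CPM in normoxia and 353, 343 and 278 CPM in hypoxia (log2 fold change -0.94 with SE 0.11, adjusted p = 0.00117 by edgeR), and Gatm, the first step of creatine synthesis, fell by 1.54 (adjusted p = 0.000235 by edgeR). Of the list, 4 rose without Normoxia_PBS-2, and 5 fell without Hypoxia_PBS-2 or by DESeq2's test and 6 with all 12 libraries in the fit.

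Amino acid breakdown had 5 genes higher and 14 lower of 48. Agxt, the peroxisomal aminotransferase that removes glyoxylate, was at 331, 348 and 421 CPM in normoxia and 104, 96.6 and 77.6 CPM in hypoxia (log2 fold change -1.99 with SE 0.14, adjusted p = 0.000243 by edgeR). Amdhd1 of histidine breakdown fell by 1.23 (adjusted p = 0.000143 by edgeR). Without Hypoxia_PBS-3, 8 fell; the rises were 9 without Normoxia_PBS-3, 2 without Normoxia_PBS-2 and 3 without Hypoxia_PBS-1, Hypoxia_PBS-3 or Normoxia_PBS-1. The rises were also 3 under the upper quartile scale, 9 by DESeq2's test and 12 with all 12 libraries in the fit. The urea cycle was not moved as a whole, with 4 higher and 3 lower of 11. Asl, argininosuccinate lyase, was at 393, 438 and 653 CPM in normoxia and 1480.2, 1354 and 1201 CPM in hypoxia (log2 fold change 1.44 with SE 0.20, adjusted p = 0.0024 by edgeR). Gls2, the liver glutaminase that feeds ammonia to the cycle, was at 372, 412 and 541 CPM in normoxia and 133, 168 and 113 CPM in hypoxia (log2 fold change -1.68 with SE 0.19, adjusted p = 0.0013 by edgeR). Cps1, which starts the cycle, was at 5795, 6383 and 7639.6 CPM in normoxia and 5789, 6789 and 4664 CPM in hypoxia and did not pass (log2 change -0.20, adjusted p = 0.38 by edgeR). The glutamine carrier gene Slc38a3 fell from 1789 ± 187 CPM to 695 ± 39.5 CPM (adjusted p = 0.000303 by edgeR). Without Normoxia_PBS-1 or Normoxia_PBS-2, 2 urea cycle genes rose.

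Of 81 cytosolic ribosomal protein genes, 47 rose and 0 fell, each by a small amount (median 0.26). Rpl3 was at 150.5, 153 and 140.4 CPM in normoxia and 227, 221 and 212 CPM in hypoxia (log2 fold change 0.57 with SE 0.08, adjusted p = 0.00207 by edgeR), the groups being apart, and Rpl36 rose by 0.36 (adjusted p = 0.00538 by edgeR). The number rested on the libraries and the scale. It was 25 without Hypoxia_PBS-3 or Normoxia_PBS-1, 19 without Normoxia_PBS-2 and 27 without Normoxia_PBS-3, and 30 under the upper quartile scale, and many of these genes have near-identical pseudogenes that could take their reads. Of 42 translation factors 13 rose and 3 fell, among them Eif6, which keeps ribosomal subunits apart (log2 change 0.84, adjusted p = 0.00195 by edgeR), and Eif2b3, a subunit of the exchange factor of initiation (log2 change 1.08, adjusted p = 0.00178 by edgeR). Of them 8 rose without Hypoxia_PBS-3 or Normoxia_PBS-1 and 7 without Normoxia_PBS-2. Of 47 genes of ribosome assembly 4 rose and 1 fell (10.6% called), with the nucleolin gene Ncl at 141, 148 and 142 CPM in normoxia and 253, 228 and 247 CPM in hypoxia (log2 fold change 0.75 with SE 0.08, adjusted p = 0.000799 by edgeR). The rises were 8 without Hypoxia_PBS-1, 2 without Hypoxia_PBS-3, 1 without Normoxia_PBS-1 or Normoxia_PBS-2 and 7 with all 12 libraries in the fit.

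Stress pathways were near the background. The integrated stress response had 2 genes higher and 2 lower of 17, heat shock proteins 2 and 3 of 19, and endoplasmic reticulum chaperones 6 and 1 of 26. Of the latter, P4hb, a protein disulfide isomerase that is also a subunit of collagen prolyl hydroxylase, was at 1189.9, 1156 and 1163 CPM in normoxia and 2190.5, 2033 and 2073 CPM in hypoxia (log2 fold change 0.84 with SE 0.09, adjusted p = 0.000709 by edgeR). Serpinh1, the collagen chaperone gene, fell from 11.3 ± 0.994 CPM to 5.04 ± 1.71 CPM (adjusted p = 0.00799 by edgeR). Of 26 targets of the antioxidant factor NRF2, 3 rose and 6 fell, Gpx1, a glutathione peroxidase gene, being at 1233, 1252 and 1321 CPM in normoxia and 822, 853 and 936 CPM in hypoxia (log2 fold change -0.54 with SE 0.09, adjusted p = 0.00475 by edgeR). Of 18 immediate early genes, which respond to handling and injury within minutes, edgeR called 0; at an unadjusted p under 0.05, 1 was higher and 2 lower, and DESeq2 called 2 lower. The proteasome had 7 higher and 2 lower of 34, and the 7 became 2 to 6 with 1 library left out: 2 for Normoxia_PBS-2, Normoxia_PBS-1 or Hypoxia_PBS-3, 3 for Normoxia_PBS-3 and 4 for Hypoxia_PBS-1. It was also 4 under the upper quartile scale. The rises among chaperones were 3 without Hypoxia_PBS-3.

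**Figure D3:**
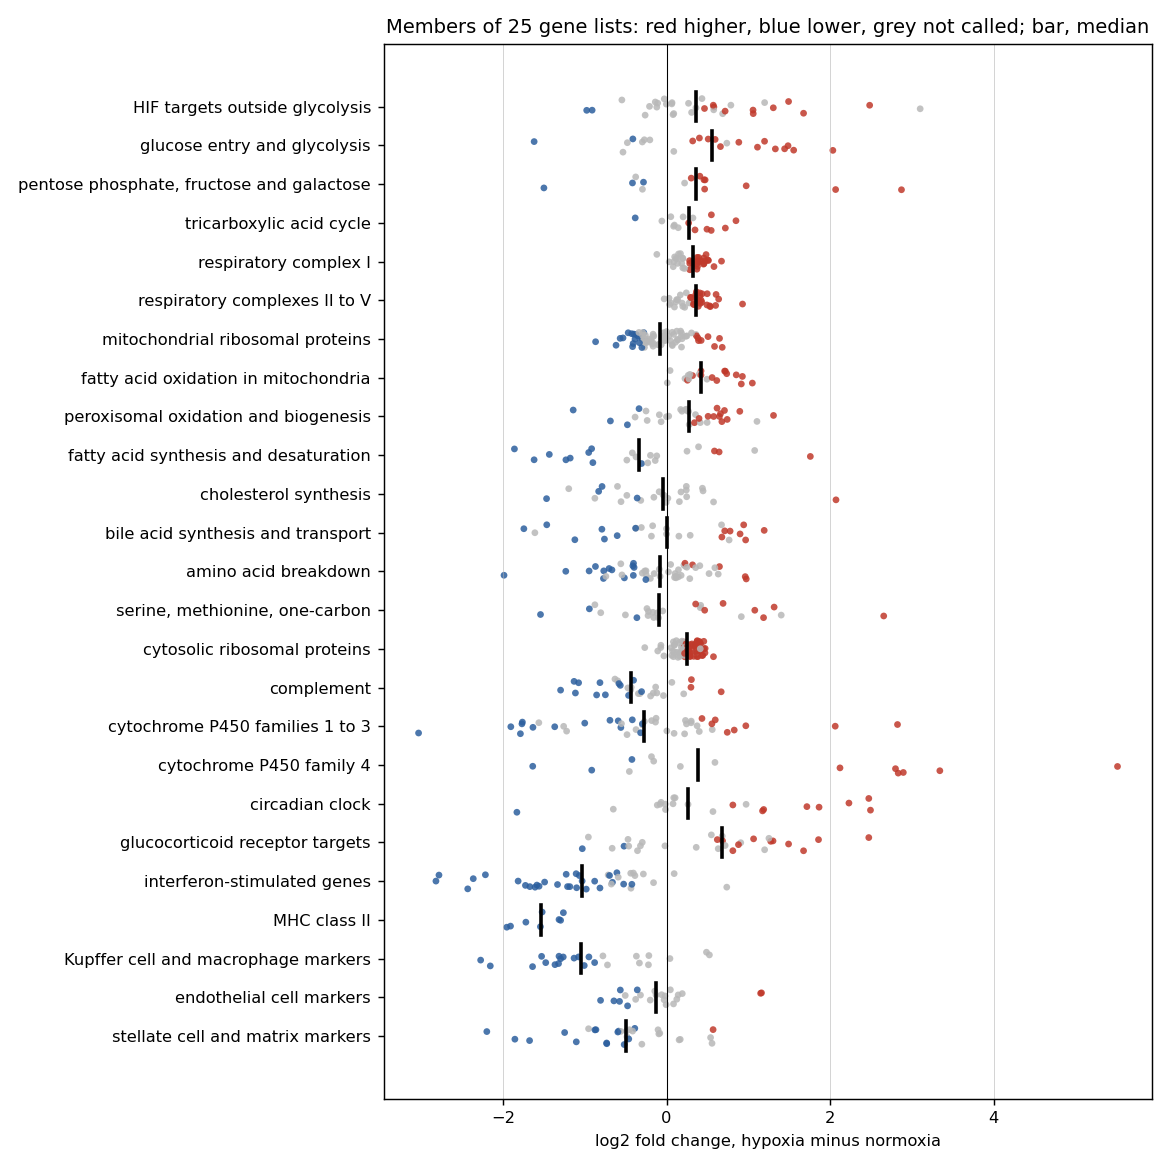
Log2 fold change, hypoxia minus normoxia (x axis), of each tested member of 25 gene lists (rows). Red points are members higher and blue points members lower at an adjusted p under 0.05, grey points did not pass, and black bars are the medians, which run from -1.53 for MHC class II to 0.68 for the glucocorticoid receptor targets.

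Lists of secreted liver proteins differed in direction. Complement had 3 genes higher and 12 lower of 29 (median -0.43). C9, the pore-forming component made by hepatocytes, was at 253, 228 and 249 CPM in normoxia and 116, 138 and 151 CPM in hypoxia (log2 fold change -0.85 with SE 0.11, adjusted p = 0.00176 by edgeR). C4bp, which restrains the cascade, rose by 0.67 (adjusted p = 0.0042 by edgeR). The C1q genes C1qa, C1qb and C1qc, which macrophages make, fell by 1.29, 1.07 and 1.13, beside the macrophage markers described below. Coagulation had 2 higher and 6 lower of 28, with 3 lower without Hypoxia_PBS-3 and 10 or 11 under the upper quartile scale, with no filter on low counts or with all 12 libraries in the fit. Acute phase proteins had 4 higher and 2 lower of 26, near the share of all genes, with 7 higher without Hypoxia_PBS-1 or Normoxia_PBS-3 and 8 with all 12 libraries in the fit, and the serum amyloid gene Saa1 was at 771, 1184 and 1532 CPM in normoxia and 976, 1652 and 1476 CPM in hypoxia (log2 change 0.24, adjusted p = 0.581 by edgeR). Hamp encodes hepcidin, the hormone that blocks iron export, and Hamp2 is a near-identical mouse copy of that gene, so reads could be split between them. Hamp was at 849.7, 878 and 1065 CPM in normoxia and 1201, 930.3 and 907 CPM in hypoxia and did not pass (log2 change 0.12, adjusted p = 0.549 by edgeR), while Hamp2 was at 497, 635 and 956 CPM in normoxia and 165, 151 and 115 CPM in hypoxia (log2 fold change -2.28 with SE 0.27, adjusted p = 0.00207 by edgeR).

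In the growth hormone and insulin axis 9 genes rose and 6 fell of 30. Igfbp3, the main carrier of circulating IGF, was at 17.5, 18.7 and 20.6 CPM in normoxia and 64.7, 56.2 and 49.03 CPM in hypoxia (log2 fold change 1.58 with SE 0.12, adjusted p = 0.000274 by edgeR). Irs2, which relays the insulin signal, rose by 1.32 (adjusted p = 0.00292 by edgeR), and Socs2, which growth hormone induces, by 1.09 (adjusted p = 0.00288 by edgeR). Igf1 itself was at 640.3, 623 and 558 CPM in normoxia and 573, 653 and 602 CPM in hypoxia (log2 change 0.01, adjusted p = 0.972 by edgeR). Igfbp1, a known HIF target, was at 328, 289 and 487 CPM in normoxia and 376, 1335 and 823 CPM in hypoxia and did not pass (log2 change 1.20, adjusted p = 0.126 by edgeR), with Hypoxia_PBS-1 within the normoxia range; without that library its log2 fold change was 1.56, adjusted p = 0.0206. The rises were 4 without Hypoxia_PBS-3, Normoxia_PBS-1 or Normoxia_PBS-2 and 5 with no filter on low counts, and the falls were 2 without the same libraries and 3 without Hypoxia_PBS-1, Hypoxia_PBS-2 or Normoxia_PBS-3.

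Drug-metabolizing enzymes changed in both directions. Of 43 genes of cytochrome P450 families 1 to 3 and their reductase, 8 rose and 14 fell. Cyp2d9, a steroid hydroxylase of male-predominant expression, was at 27.1, 26.96 and 26.997 CPM in normoxia and 169, 197 and 208 CPM in hypoxia, with each group even and the groups far apart (log2 fold change 2.82 with SE 0.10, adjusted p = 3.13e-05 by edgeR). Cyp1a2, which oxidizes caffeine and aromatic amines on the pericentral side, was at 509.8, 603 and 745 CPM in normoxia and 168, 220.0 and 151 CPM in hypoxia (log2 fold change -1.79 with SE 0.19, adjusted p = 0.00089 by edgeR). Cyp2a4 fell by 1.76 (adjusted p = 0.0003 by edgeR). Cyp2e1, the ethanol-inducible enzyme, was at 6153, 5416 and 5792 CPM in normoxia and 7047, 6391 and 6793 CPM in hypoxia and did not pass (log2 change 0.22, adjusted p = 0.121 by edgeR). The falls were 6 without Hypoxia_PBS-3 and 7 without Normoxia_PBS-1 or Normoxia_PBS-2. The flavin monooxygenase genes Fmo2 and Fmo5 rose by 1.72 (adjusted p = 0.000204 by edgeR) and 1.31 (adjusted p = 0.00123 by edgeR). Among transferases 6 rose and 17 fell of 46, the glutathione transferases Gstm3 (-1.39) and Gstm4 (-1.55) falling; 11 fell without Normoxia_PBS-2.

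Markers of position in the lobule did not move as a block to either side. Of 26 pericentral genes 3 rose and 6 fell, and of 25 periportal genes 5 rose and 9 fell, so both held more falls than rises. Glul, glutamine synthetase, which marks the cells around the central vein, was at 1098, 972 and 1110.3 CPM in normoxia and 1356, 1312 and 1239 CPM in hypoxia (log2 change 0.30, adjusted p = 0.048 by edgeR), and that call was lost when any one library was left out (adjusted p up to 0.176) and under the upper quartile scale (adjusted p = 0.0746). Hnf4a, the transcription factor that maintains hepatocyte identity, was at 1126, 1143 and 988 CPM in normoxia and 632, 706 and 630.5 CPM in hypoxia (log2 fold change -0.73 with SE 0.10, adjusted p = 0.0022 by edgeR). Of 27 iron genes 3 rose and 4 fell, Fth1, the ferritin heavy chain, rising by 0.59 (adjusted p = 0.00476 by edgeR). Pericentral falls were 2 without Hypoxia_PBS-3 and 3 without Normoxia_PBS-2, and periportal rises 3 without Normoxia_PBS-1 or Normoxia_PBS-2.

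Of 21 clock genes 8 rose and 1 fell, and the rises were 6 to 9 with 1 library left out. Among the 21, 1 gene met the filter only through the hypoxia libraries. Per2 was at 4.03, 5.63 and 8.22 CPM in normoxia and 32.3, 21.999 and 28.9 CPM in hypoxia (log2 fold change 2.23 with SE 0.26, adjusted p = 0.00183 by edgeR). Per3 was at 3.79, 4.77 and 7.18 CPM in normoxia and 30.03, 25.7 and 32.3 CPM in hypoxia (log2 fold change 2.49 with SE 0.22, adjusted p = 0.000552 by edgeR). Cry1 was at 8.68, 8.79 and 7.94 CPM in normoxia and 25.1, 27.8 and 30.7 CPM in hypoxia (log2 fold change 1.72 with SE 0.11, adjusted p = 0.000184 by edgeR). These 3 genes encode repressors of the clock's feedback loop, and in each the lowest hypoxia library was above the highest normoxia library. Nr1d1 (REV-ERB alpha), a nuclear receptor that represses Arntl, was the gene that fell, at 83.1, 74.3 and 89.2 CPM in normoxia and 30.3, 17.8 and 21.1 CPM in hypoxia (log2 fold change -1.83 with SE 0.19, adjusted p = 0.00122 by edgeR). The output factors Hlf (log2 change 1.19, adjusted p = 0.000428 by edgeR) and Tef (log2 change 1.17, adjusted p = 0.00106 by edgeR) rose, while Dbp (log2 change 0.57, adjusted p = 0.322 by edgeR) and the activator Arntl (log2 change 0.26, adjusted p = 0.205 by edgeR) did not pass. The hour of sampling is not given in the sources used here.

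Of 28 tested genes of G1 cyclins, CDK inhibitors and the MYC network, 4 rose and 4 fell, a called share of 28.6% against 29.7% of all genes, and 1 fell without Hypoxia_PBS-3 or any one of the normoxia libraries. Ccnd1, given above, was among the falls. Cdkn1a, which encodes the inhibitor p21, was at 34.6, 20.7 and 22.6 CPM in normoxia and 115, 106 and 60.6 CPM in hypoxia (log2 fold change 1.86 with SE 0.31, adjusted p = 0.00917 by edgeR). Myc was at 6.17, 5.09 and 6.15 CPM in normoxia and 14.5, 28.05 and 15.6 CPM in hypoxia, with Hypoxia_PBS-2 the highest (log2 fold change 1.74 with SE 0.27, adjusted p = 0.00499 by edgeR). The stress gene Gadd45g rose by 1.27 (adjusted p = 0.000969 by edgeR). Of 15 tested genes of replication and division 2 rose and 2 fell, near the share of all genes; Rrm2, the ribonucleotide reductase subunit, was at 3.24, 3.65 and 1.59 CPM in normoxia and 23.8, 15.7 and 15.6 CPM in hypoxia (log2 fold change 2.68 with SE 0.30, adjusted p = 0.00153 by edgeR), and the replication regulator E2f1, which met the filter only through the normoxia libraries, was at 1.34, 1.29 and 1.86 CPM in normoxia and 0.363, 0.378 and 0.209 CPM in hypoxia. Among the 15 tested, 1 gene met the filter only through the hypoxia libraries. A further 15 members of that list were below the filter on low counts and were not tested.

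Known glucocorticoid receptor targets were also read in these mice, which had no DEX. Of 29 tested, 11 rose and 2 fell (median 0.68), among them Cdkn1a, Ddit4 and Gadd45g given above. Among the 29, 1 gene met the filter only through the hypoxia libraries. The receptor gene Nr3c1 was at 78.4, 84.2 and 75.3 CPM in normoxia and 79.6, 86.5 and 91.4 CPM in hypoxia and did not pass (log2 change 0.11, adjusted p = 0.328 by edgeR). Fkbp5, a chaperone whose level tracks glucocorticoid exposure, was at 116, 61.97 and 133 CPM in normoxia and 316, 260.2 and 189 CPM in hypoxia (log2 fold change 1.30 with SE 0.33, adjusted p = 0.0306 by edgeR), a call lost without Hypoxia_PBS-1, Hypoxia_PBS-2 or Normoxia_PBS-1 (adjusted p up to 0.1) and with no filter on low counts (adjusted p = 0.112). Per1, another direct target, was at 21.3, 26.2 and 33.7 CPM in normoxia and 53.5, 41.6 and 46.9 CPM in hypoxia (log2 fold change 0.81 with SE 0.17, adjusted p = 0.0133 by edgeR) and was not called without Normoxia_PBS-2 (adjusted p 0.0625). Tsc22d3, which encodes GILZ and is among the most direct targets, was at 38.5, 52.3 and 52.4 CPM in normoxia and 39.8, 45.96 and 26.2 CPM in hypoxia and did not pass (log2 change -0.36, adjusted p = 0.271 by edgeR). Members of the list therefore differed in direction, and 7 rose without Normoxia_PBS-2. Hormone levels in blood are not part of these data.

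Most interferon-stimulated genes fell. Type I interferon signals to genes that share an interferon-stimulated response element and whose products sense or block viruses. Of 39 tested, 0 rose and 28 fell (median -1.03), and 20 to 28 fell with 1 library left out. Zbp1, a sensor of nucleic acids, was at 14.9, 15.8 and 10.2 CPM in normoxia and 2.06, 3.33 and 2.64 CPM in hypoxia (log2 fold change -2.36 with SE 0.23, adjusted p = 0.00063 by edgeR). Ifi44 was at 6.35, 7.45 and 7.32 CPM in normoxia and 0.908, 1.44 and 1.5995 CPM in hypoxia (log2 fold change -2.43 with SE 0.22, adjusted p = 0.000504 by edgeR). Oas3, which makes the messenger that activates RNase L, was at 3.54 ± 0.924 CPM in normoxia and 0.494 ± 0.132 CPM in hypoxia. It is 1 of 3 genes of the list that met the filter only through the normoxia libraries. In Zbp1 and Ifi44 the groups did not overlap. The apolipoprotein L genes Apol9a (log2 change -2.47, adjusted p = 0.000282 by edgeR) and Apol9b (log2 change -2.29, adjusted p = 0.00126 by edgeR), which are near-identical copies, fell too.

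Promoters of 2 of these genes are shown for the response element they hold. Each is again the 250 bases before the start (RefSeq, GRCm38.p6), and capitals mark 2 copies of GAAA with 2 bases between them, on either strand.
Oas3 (chr5:120777660-120777909, minus strand): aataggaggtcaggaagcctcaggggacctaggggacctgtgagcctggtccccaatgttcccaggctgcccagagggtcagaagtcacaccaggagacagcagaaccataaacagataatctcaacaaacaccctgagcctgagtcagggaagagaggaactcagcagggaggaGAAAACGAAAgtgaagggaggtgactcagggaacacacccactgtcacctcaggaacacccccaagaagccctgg
Ifit3b (chr19:34607707-34607956, plus strand): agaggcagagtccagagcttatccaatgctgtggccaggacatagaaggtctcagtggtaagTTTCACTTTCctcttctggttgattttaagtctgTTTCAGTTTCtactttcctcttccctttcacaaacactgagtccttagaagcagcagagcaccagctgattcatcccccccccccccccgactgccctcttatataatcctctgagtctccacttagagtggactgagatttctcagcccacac
That arrangement of GAAA, on either strand, was in 11 of 34 windows (32.4%) of the tested interferon-stimulated genes and in 2.74% of all windows, in 4.39% of those of genes that fell and in 2.63% of those of genes that rose. Ifit3b, an interferon-induced tetratricopeptide gene that also met the filter only through the normoxia libraries, had means of 3.19 ± 0.583 CPM in normoxia and 0.696 ± 0.211 CPM in hypoxia.

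Genes of antigen presentation to helper T cells fell. All 8 tested MHC class II genes fell (median -1.53), and 7 or 8 fell with 1 library left out. H2-Aa was at 40.1, 49.05 and 30.5 CPM in normoxia and 9.51, 12.5 and 8.97 CPM in hypoxia (log2 fold change -1.95 with SE 0.20, adjusted p = 0.00111 by edgeR). Cd74, the invariant chain that guides class II molecules, was at 85.7, 110.1 and 71.3 CPM in normoxia and 26.5, 38.1 and 28.7 CPM in hypoxia (log2 fold change -1.52 with SE 0.20, adjusted p = 0.00264 by edgeR). The class I heavy chain genes H2-K1 (log2 change -0.05, adjusted p = 0.721 by edgeR) and H2-D1 (log2 change 0.18, adjusted p = 0.272 by edgeR) did not pass, and of 20 genes of class I and antigen processing 0 rose and 7 fell, among them the immunoproteasome gene Psmb8 (log2 change -0.84, adjusted p = 0.00633 by edgeR). Of 20 interferon-gamma GTPases and related genes 0 rose and 2 fell (median 0.05). Of 39 chemokines, cytokines and NF-kB targets 0 rose and 1 fell (median 0.20). Without Hypoxia_PBS-1, 3 and 2 members of the 2 lists rose and 2 and 1 fell. With the replicate block, 1 and 3 rose and 3 and 3 fell. These lists were marked by a wide spread between libraries. Cxcl9 was at 29.1, 50.6 and 128 CPM in normoxia and 21.3, 420.3 and 225 CPM in hypoxia (log2 fold change 1.68 with SE 1.14, adjusted p = 0.321 by edgeR). Saa3 was at 8.74, 41.2 and 95.7 CPM in normoxia and 16.7, 169.6 and 114 CPM in hypoxia (log2 fold change 1.04 with SE 1.12, adjusted p = 0.529 by edgeR), so the hypoxia libraries differed among themselves by more than the groups did.

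Most markers of macrophages fell. Of 24 markers of Kupffer cells, the resident liver macrophages, and other macrophages, 15 fell and 0 rose (median -1.04), and 14 to 17 fell with 1 library left out. Clec4f (ENSMUSG00000014542, chromosome 6, 83644542 to 83656187), a lectin found on Kupffer cells alone, was at 137, 119 and 101 CPM in normoxia and 20.4, 31.7 and 28.4 CPM in hypoxia (log2 fold change -2.15 with SE 0.19, adjusted p = 0.00063 by edgeR). The folate receptor gene Folr2 fell by 2.27 (adjusted p = 0.000282 by edgeR), the scavenger gene Cd5l by 1.53 (adjusted p = 0.000795 by edgeR) and the complement receptor gene Vsig4 by 1.36 (adjusted p = 0.000282 by edgeR). The 24 markers summed to 1131 to 1352 CPM in normoxia and 702 to 786 CPM in hypoxia, and none was at 0. In whole tissue, fewer cells of a type and less RNA per cell cannot be told apart. Dendritic cell markers summed to 236 to 242 CPM in normoxia and 164 to 171 CPM in hypoxia, and T and NK cell markers to 22.5 to 26.8 and 11.7 to 19.3 CPM. Of 13 dendritic markers 7 were below the filter, and of the 6 tested 0 rose and 2 fell. Of 22 T and NK markers 15 were below it, and of the 7 tested 0 rose and 1 fell. These marker sums were lower in hypoxia, as were the class II and most interferon-stimulated genes. The part of the sums in those falls was not tested.

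Endothelial markers moved in both directions. Of 23, 2 rose and 6 fell, and their sum was 918 to 990 CPM in normoxia and 836 to 846 CPM in hypoxia. Kdr, the main VEGF receptor, was at 89.3, 82.2 and 77.1 CPM in normoxia and 54.1, 43.5 and 44.4 CPM in hypoxia (log2 fold change -0.81 with SE 0.10, adjusted p = 0.0017 by edgeR). Cdh5, the endothelial cadherin, fell by 0.64 (adjusted p = 0.00305 by edgeR). Vwf, the von Willebrand factor of larger vessels, was at 10.5, 8.52 and 10.8 CPM in normoxia and 19.1, 26.5 and 21.003 CPM in hypoxia (log2 fold change 1.16 with SE 0.15, adjusted p = 0.00185 by edgeR). Lyve1, a sinusoidal hyaluronan receptor, was at 11.7, 10.3 and 11.6 CPM in normoxia and 21.5, 25.1 and 28.03 CPM in hypoxia (log2 fold change 1.15 with SE 0.12, adjusted p = 0.000813 by edgeR). The shared marker Pecam1 (log2 change -0.06, adjusted p = 0.606 by edgeR) and the sinusoidal scavenger receptor gene Stab2 (log2 change 0.05, adjusted p = 0.732 by edgeR) did not pass. The summed level of the list was lower in hypoxia, with no overlap between groups. Of 22 angiogenic and vascular genes 2 rose, Nos3 (log2 change 0.98, adjusted p = 0.00276 by edgeR) and Flt1 (log2 change 0.54, adjusted p = 0.00503 by edgeR), and 5 fell, among them the ligand gene Vegfb, from 9.87 ± 0.0972 CPM to 4.34 ± 0.842 CPM (adjusted p = 0.00182 by edgeR). Of the vascular genes 3 fell with any single hypoxia library left out or with no filter on low counts, and 2 without Normoxia_PBS-1 or Normoxia_PBS-2.

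Matrix genes of stellate cells fell more often than they rose. Of 29 tested, 1 rose and 14 fell (median -0.49), and 7 fell without Hypoxia_PBS-3 and 9 without Normoxia_PBS-1 or Normoxia_PBS-3. Col3a1 was at 35.4, 29.6 and 32.1 CPM in normoxia and 6.54, 8.09 and 6.61 CPM in hypoxia (log2 fold change -2.20 with SE 0.12, adjusted p = 0.000107 by edgeR). Col1a1 fell by 1.85 (adjusted p = 0.00154 by edgeR) and the proteoglycan gene Lum by 1.67 (adjusted p = 0.00133 by edgeR). The stellate proteoglycan gene Dcn was at 158, 146 and 204 CPM in normoxia and 188, 198 and 178 CPM in hypoxia and did not pass (log2 change 0.15, adjusted p = 0.401 by edgeR), and the summed level of the list overlapped between groups, 880 to 1112 CPM in normoxia against 792 to 930 CPM in hypoxia. Cholangiocyte markers summed to 195 to 237 CPM in normoxia and 131 to 144 CPM in hypoxia. Of these 12 markers 6 were below the filter, and of the 6 tested 0 rose and 3 fell (2 or 3 with 1 library left out). At an unadjusted p under 0.05 by edgeR, 1 was higher. Erythroid markers summed to 114 to 159 CPM in normoxia and 201 to 248 CPM in hypoxia, with Epb42 at 0 in all 6 libraries. The sums of neutrophil and of B cell markers overlapped between groups. Of 15 B cell markers 9 were below the filter, and of the 6 tested 0 rose and 2 fell (median -0.91). With 1 library left out, 0 to 3 of them fell. The adipocyte list, of which Lep was at 0, summed to 1594 to 2056 CPM in normoxia and 364 to 646 CPM in hypoxia, and most of that sum was Car3, a carbonic anhydrase that liver also expresses (1545, 1606 and 2015 CPM in normoxia and 384, 605 and 314 CPM in hypoxia, log2 change -1.99, adjusted p = 0.00253 by edgeR).

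**Figure D4:**
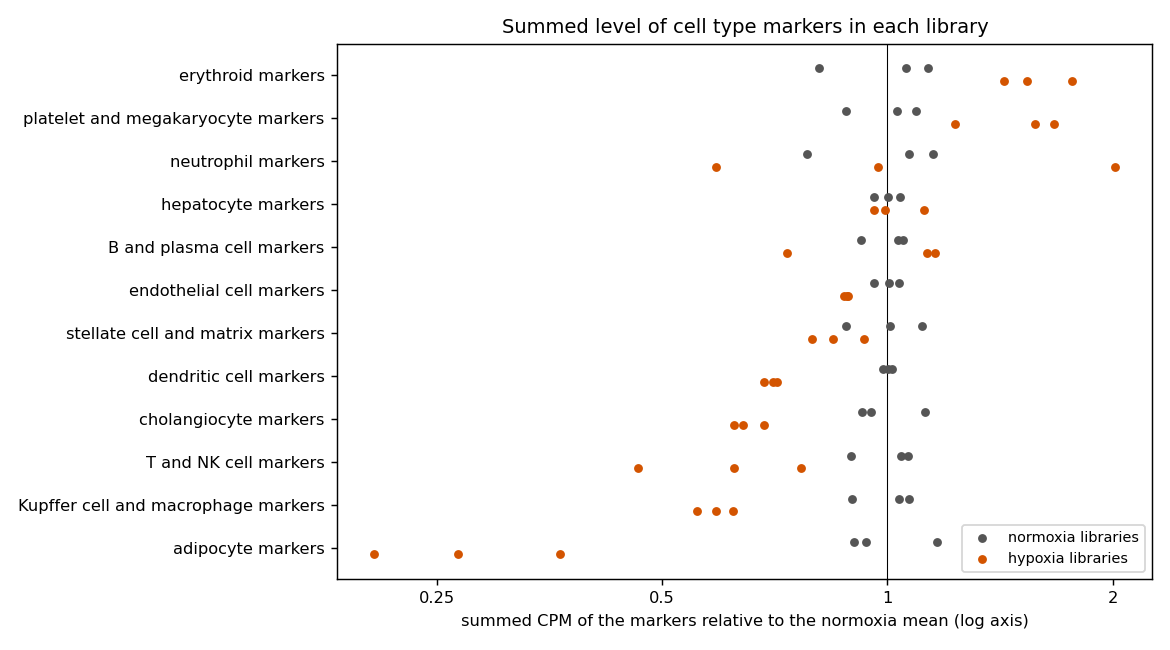
Summed CPM of cell type markers in each normoxia (grey) and hypoxia (orange) library, relative to the normoxia mean of the same list (x axis, log axis; rows are lists). Kupffer cell markers lie at 702 to 786 CPM in hypoxia against 1131 to 1352 CPM in normoxia. The sums of hepatocyte, neutrophil, B cell and stellate markers overlap.

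The oxygen response was also read in the 6 libraries of mice given DEX, which share no library with the comparison above. There 5919 of 12236 tested genes (48.4%) were called, but Hypoxia_DEX-1 and Hypoxia_DEX-3 were closer to each other than other replicates, with a chi-square per gene of 1.79, while pairs of PBS libraries of a group had 10.5 to 38.4. Summed into 1 library, they left 4719 of 12025 genes (39.2%) called. Of the 1844 genes that rose under PBS, 1812 were tested under DEX, 1741 had the same sign and 1480 rose there, against 23.9% of all genes tested; with the pair summed 1310 of 1742 did. Of the 1849 that fell, 1805 were tested, 1754 had the same sign and 1447 fell, against 24.5%; with the pair summed 1304 of 1800 did. In the opposite direction, 17 of the genes that rose and 7 of those that fell were called. Log2 fold changes of hypoxia under DEX were 3.51 for Apoa4, 2.61 for Bhmt, 3.28 for Tkfc, -4.33 for Aqp8, -4.54 for Ccnd1, -2.45 for Clec4f, 1.17 for Pdk1 and 2.66 for Cyp4a10. Across 12030 genes tested in both, the 2 sets of log2 fold changes had a Pearson correlation of 0.82 and a Spearman correlation of 0.79, as a description across genes that are not independent replicates.

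**Figure D5:**
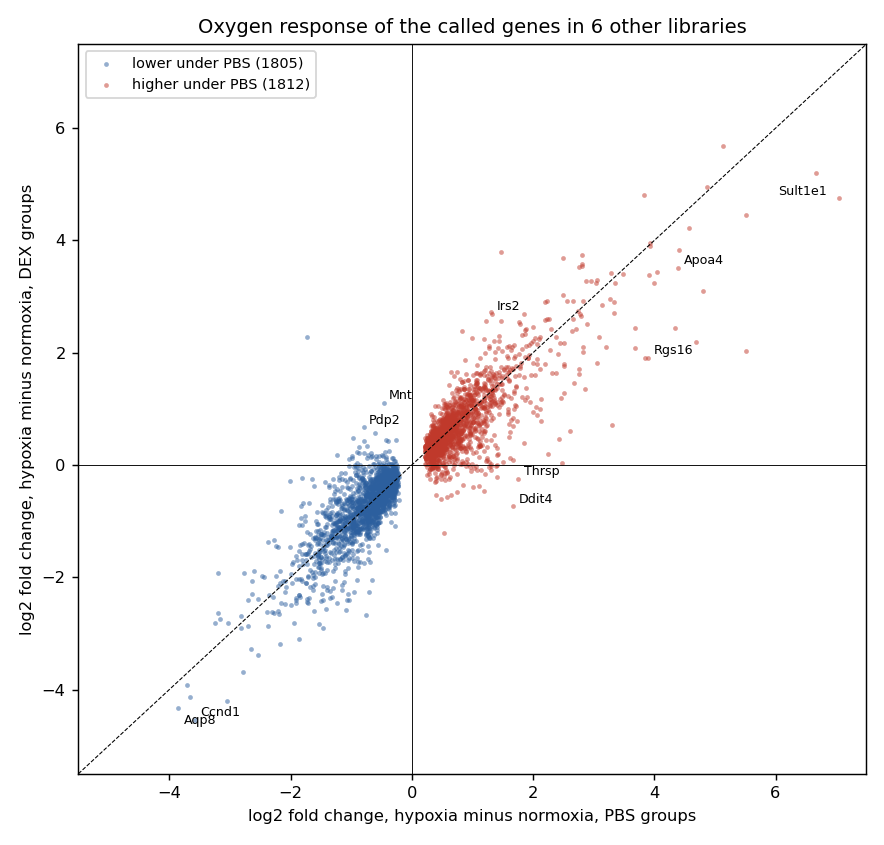
Log2 fold change, hypoxia minus normoxia, of the genes called under PBS, in the PBS groups (x axis) and in the DEX groups (y axis), with the line of equal change dashed. Of 1812 genes higher (red) and 1805 lower (blue) under PBS, 1741 and 1754 have the same sign in the DEX groups; Ddit4 lies on the other side of 0.

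A test of the difference between both oxygen responses, over all 12 libraries, called 174 of 12801 genes (1.36%), of which 51 had risen and 29 had fallen under PBS. With the DEX pair summed the test called 71, and between 65 and 299 with 1 library left out, the lowest without Hypoxia_DEX-3 and the highest without Hypoxia_PBS-1. Most of the oxygen response under PBS was therefore not called different under DEX, which does not show that it was equal.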

How the data were processed

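RNA was measured in 12 liver libraries, 3 per group, made as stranded mRNA libraries per the labels' protocols. The authors deposited raw read counts per gene for each library. Per the submitters' processing notes reads were handled on mm10 with HISAT2 2.0.4, Trimmomatic, featureCounts, SAMtools and DESeq2, in no stated order. The strand setting, annotation release and other parameters are not stated in the sources used here. The treatment text calls both oxygen groups hypoxia, which was read as a slip for the group kept in normal conditions, since the sample labels give 21% O2.

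Counts were taken as deposited, for 54838 identifiers, of which 54723 have a symbol in GENCODE M21. Positions are on mm10, and promoter windows are RefSeq's on GRCm38.p6, 250 bases before a start. Genes with at least 1 CPM in at least 3 of the 6 PBS libraries were kept (12428), scaled by TMM and tested with edgeR 4.0.16 (R 4.3.3), robust quasi-likelihood, Benjamini-Hochberg adjustment over all genes tested, two-sided, threshold 0.05, with 4 residual degrees of freedom. Total counts of 14273137 to 17456286 per library limit the precision of genes at a few CPM, and intervals from reads cover counting error only. Counts were simulated for this comparison with 200 genes changed, and 12269 genes then passed the filter. Among the changed genes that passed it, 20.4% of those changed 1.5-fold, 85.4% of 2-fold, 100% of 4-fold and 95.9% of 8-fold were recovered. There were 7 false calls of 155. A far larger share of genes was called in the data (29.7%), so these shares describe the simulated setting only. Pairs of PBS libraries of one group differed by 10.5 to 38.4 chi-square units per gene, so none was counted as a repeat.

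Alternatives were RLE and upper quartile scaling, DESeq2 1.42.0, 2 other filters, a replicate block, all 12 libraries in the fit and leaving out each library. Genes named were the 15 genes with the largest rise and the 15 with the largest fall, called, with a group mean of at least 10 CPM and groups that do not overlap (leaving out unnamed predicted genes, major urinary proteins and immunoglobulins), up to 5 called members in each direction of each of 78 gene lists, and a fixed set of key genes. The members of the comparison and the lists were chosen with earlier results of these data known. Named outside that rule, after their values were seen, were Ak4, Arntl, Cpt1a, Cs, Cxcl9, Cxcl10, Cyp7a1, Dbp, Dcn, E030018B13Rik, Fasn, G6pc, Gm15998, H2-D1, H2-K1, Hlf, Mlxipl, Pdk4, Pecam1, Pgk1, Pkm, Plin2, Plod1, Rpl36, Saa1, Saa3, Stab2, Tef, Vsig4 and Xist. Some genes that this rule or a list holds are counted with their lists and not reported here by name. Figures were drawn with matplotlib.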

Additional observations from a re-analysis of the deposited data

Results flagged for a closer look

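Of 441 named genes tested for a difference between the oxygen response under DEX and under PBS, over all 12 libraries, 15 passed at an adjusted p under 0.05. Most of the 441 were named because they were called under PBS, and that response is part of the difference tested. Over all genes 174 of 12801 (1.36%) passed, and the 15 are given as a description only. Values are the log2 response under DEX minus that under PBS. Ddit4, the mTOR inhibitor and HIF target, differed by -2.40 (SE 0.36, adjusted p = 0.012 by edgeR; 1.67 under PBS and -0.73 under DEX). Pdp2, the phosphatase that reactivates pyruvate dehydrogenase, differed by 1.47 (SE 0.20, adjusted p = 0.00382 by edgeR; -0.79 under PBS and 0.67 under DEX). Mnt, a repressor that opposes Myc, differed by 1.57 (SE 0.19, adjusted p = 0.00136 by edgeR; -0.46 under PBS and 1.11 under DEX). Lyve1, the sinusoidal hyaluronan receptor, differed by -1.23 (SE 0.16, adjusted p = 0.00237 by edgeR; 1.15 under PBS and -0.09 under DEX). The lipogenic regulator Thrsp (-1.998), the G-protein regulator Rgs16 (-1.99), the glycogen-targeting subunit Ppp1r3b (-1.38), the flavin monooxygenase Fmo5 (-1.29), the stress gene Gadd45g (-1.22), the glutathione transferase Gstm2 (-1.16) and the drug-oxidizing enzyme Cyp3a11 (-0.64) responded lower under DEX. The insulin signal relay Irs2 (1.38), the mitochondrial ribosomal protein Mrpl38 (0.65), the VEGF receptor Kdr (0.63) and the iron regulator Ireb2 (0.54) responded higher. With the near-alike pair Hypoxia_DEX-1 and Hypoxia_DEX-3 summed, 7 of the 15 passed (Ddit4, Fmo5, Gadd45g, Lyve1, Mnt, Pdp2 and Rgs16). Without Hypoxia_PBS-1, 13 passed, all but Gstm2 and Irs2.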

How the results depend on the processing

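The counts of genes higher and lower were 1844 and 1849, and they were 1545 to 2427 and 1603 to 2376 under other scales, filters and tools and with all 12 libraries in the fit. With 1 library left out they were 962 to 1689 and 921 to 1656, and those changed at least 2-fold were 325 to 433 higher and 333 to 585 lower. The 174 genes whose oxygen response differed between PBS and DEX were 71 with Hypoxia_DEX-1 and Hypoxia_DEX-3 summed, 369 by DESeq2 and 65 to 299 with 1 library left out; fewer libraries entered those fits, and the cause of the DESeq2 count was not tested. With the replicate number as a block 1727 genes rose and 1710 fell, and 161 differed between PBS and DEX. Deviations of same-numbered libraries correlated at 0.39, 0.039 and 0.041, the first being the highest between any hypoxia and normoxia library. Hypoxia_PBS-2 and Hypoxia_PBS-3 correlated best with another number. Deviations from a group mean constrain each other, so these values cannot decide whether the numbers mark pairs. Of 450 named genes that were called, 283 kept the call under every alternative run, 167 lost it under at least 1 and 68 under a change of scale, filter or tool; of 37 uncalled genes, 7 were called under at least 1. None of the 10 genes that changed sign was called: with 1 library left out, log2 fold changes ran from -0.41 to 0.091 for Fasn, -0.11 to 0.0098 for H2-K1, -0.015 to 0.22 for Hamp, -0.058 to 0.052 for Igf1, -1.18 to 0.66 for Pdk4, -0.0048 to 0.14 for Pkm, -0.72 to 0.15 for Plin2, -0.012 to 0.11 for Stab2, -0.45 to 0.51 for Txnip and -0.069 to 0.20 for Vegfa. Igf1 was also at -0.0306 under the upper quartile scale and -0.00393 with no filter on low counts. Of 156 list counts, 0 moved by over 1.5 times with edgeR's own filter, 2 with RLE size factors, 13 with the upper quartile scale, 14 with DESeq2, 19 with no filter on low counts, 24 with all 12 libraries in the fit and 30 with the replicate block, and 23 to 77 with 1 library left out. Depth limits genes at a few CPM, such as Ankrd37 with 17 reads over the normoxia libraries.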

Other observations

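Gene groups not described above were mixed. Triglyceride and phospholipid synthesis held rises in the acyltransferase genes Agpat2 (log2 change 0.77, adjusted p = 0.00237 by edgeR) and Agpat3 (log2 change 0.95, adjusted p = 0.00147 by edgeR) and in Chpt1, the last step of phosphatidylcholine synthesis (log2 change 1.01, adjusted p = 0.00139 by edgeR), within a list of 20 in which 5 rose and 3 fell; 3 rose without Normoxia_PBS-2. Of 27 amino acid and monocarboxylate carriers 4 rose and 5 fell (3 without Hypoxia_PBS-3), with the glutamine carrier gene Slc1a5 higher (log2 change 1.04, adjusted p = 0.00601 by edgeR) and the heteromeric carrier subunits Slc3a1 (log2 change -1.16, adjusted p = 0.00113 by edgeR) and Slc7a8 (log2 change -0.98, adjusted p = 0.00575 by edgeR) lower. Dio1, the liver deiodinase that activates thyroid hormone, was at 55.7, 47.5 and 48.3 CPM in normoxia and 93.4, 78.2 and 92.9 CPM in hypoxia (log2 fold change 0.80 with SE 0.10, adjusted p = 0.0015 by edgeR), and its groups did not overlap. Esrra, a nuclear receptor that drives mitochondrial genes, was at 12.6, 17.05 and 17.3 CPM in normoxia and 31.8, 24.4 and 23.6 CPM in hypoxia (log2 fold change 0.77 with SE 0.16, adjusted p = 0.0107 by edgeR), also with no overlap. Txnip, a glucose-induced thioredoxin inhibitor, was at 69.7, 47.9 and 44.7 CPM in normoxia and 109, 34.5 and 44.4 CPM in hypoxia and did not pass (log2 change 0.21, adjusted p = 0.777 by edgeR), Hypoxia_PBS-1 being the highest. Fgf21, a hormone that liver secretes on fasting, had 57, 3 and 0 reads in normoxia and 31, 7 and 14 in hypoxia and was below the filter on low counts.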
